A study of Mus musculus with 20 samples.

Results

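The grafts compared here are 8 libraries of prostate type from a series of 20: the 4 libraries labelled PE and the 4 labelled mNKX3.1. They were selected on a measured value, that of Sbp, which encodes spermine binding protein, a main secretory product of the ventral lobe of the mouse prostate. Libraries with an Sbp log2 value of 14 or more form the high side and those below 14 the low side, which put 4 libraries on each. The high side holds PE 3 and mNKX3.1 1, 2 and 4, and the low side holds PE 1, 2 and 4 and mNKX3.1 3. The other 12 libraries, labelled SVE, UTY_sh and mNKX3.1+UTY_sh, have the secretory profile of seminal vesicle and serve as a reference only.

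Each graft is a tissue recombinant, in which mouse epithelium is put together with embryonic mesenchyme that directs what the epithelium becomes. PE grafts were made from mouse prostate epithelial cells with wild-type NKX3.1, and mNKX3.1 grafts from mouse seminal vesicle epithelial cells carrying a construct labelled mNKX3.1. Of the reference groups, SVE grafts were made from seminal vesicle epithelium with wild-type NKX3.1, and the others from the same epithelium with the hairpin UTY_sh or with UTY_sh and mNKX3.1. The sample labels give the mouse background as hybrid 129/SvImJ and C57Bl/6J, while the growth protocol names C57Bl/6J donors aged 2 months. All grafts shared rat Sprague Dawley urogenital sinus mesenchyme and were taken 3 months after implantation. The treatment protocol gives doxycycline in the drinking water for 3 months to induce wild-type NKX3.1 and its T164A mutant from a changed pTRIPZ vector, without saying which groups received it, and the labels do not explain the letter m. Whether libraries under 1 label are from different animals is not stated. RNA came from whole grafts, so epithelium, stroma, nerve and fat were measured together, and the table does not separate rat from mouse transcripts.

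The mouse prostate has ventral, lateral, dorsal and anterior lobes, each with its own mix of secreted proteins. Sbp and the protease inhibitor gene Spink3 are known as ventral products, while probasin (Pbsn), microseminoprotein beta (Msmb) and transglutaminase 4 (Tgm4) are known from the dorsal, lateral and anterior lobes. Hoxb13, a homeobox gene, is needed for normal differentiation of the ventral lobe.

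Sbp and its relative Sbpl, spermine binding protein-like, are neighbours on mouse chromosome 17 and are annotated on opposite strands. The 250 bases before a start site of each are shown because these genes had the 2 largest differences between the sides. For Sbp the window is that of the most downstream of 3 RefSeq starts, chr17:23941668-23941917 on the plus strand, and for Sbpl it is chr17:23955274-23955523 on the minus strand, both in RefSeq's GRCm38.p6. Capitals mark the motif AGAACA, the androgen and glucocorticoid receptor half-site, or TATAAA, the TATA box, on either strand.
Sbp: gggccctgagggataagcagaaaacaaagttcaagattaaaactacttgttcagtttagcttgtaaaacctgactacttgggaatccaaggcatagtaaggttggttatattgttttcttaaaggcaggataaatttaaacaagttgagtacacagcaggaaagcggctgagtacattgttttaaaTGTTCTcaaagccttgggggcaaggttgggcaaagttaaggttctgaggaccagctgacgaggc
Sbpl: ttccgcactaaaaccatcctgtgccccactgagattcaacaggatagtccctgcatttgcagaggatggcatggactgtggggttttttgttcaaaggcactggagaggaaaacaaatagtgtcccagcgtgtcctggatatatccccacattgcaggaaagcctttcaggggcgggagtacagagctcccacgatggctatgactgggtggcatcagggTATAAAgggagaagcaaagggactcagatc

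The windows of the other 2 Sbp starts held no match to either motif. The Sbp window shown held 1 half-site, read on the reverse strand as TGTTCT, and no TATAAA, while the Sbpl window held 1 TATAAA and no half-site. AGAACA or its reverse complement is present in 16.1% of 32851 RefSeq promoter windows of the same length, and TATAAA in 12.4%. In the GENCODE M21 transcripts, 38.9% of all 50-base words of Sbpl also occur in Sbp, so reads of the 2 genes could be divided between them by the authors' counting, and their separate levels are uncertain.

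The Sbp log2 value was 5.63 in PE 1, 7.35 in PE 2, 19.38 in PE 3 and 8.14 in PE 4. In mNKX3.1 1, 2, 3 and 4 it was 18.48, 18.53, 8.46 and 18.22. The lowest high library was thus at 18.22 and the highest low library at 8.46, and no library lay between them, so thresholds of 10 and 17 gave the same sides. These values chose the sides, so the split itself is described without a test. Among the reference libraries Sbp was between 1.84 and 3.45 in SVE and between 2.76 and 3.45 in mNKX3.1+UTY_sh, near the floor of the scale, but 9.72, 7.68, 8.33 and 3.48 in UTY_sh 1 to 4.

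The sides did not coincide with the labels. Of the 4 PE libraries 1 was high, and of the 4 mNKX3.1 libraries 3 were. Compared by label, mNKX3.1 against PE gave 0 of 13456 genes at an adjusted p below 0.05 in limma, a share of 0%. In the same limma fit 65 genes (0.483%) had an unadjusted p below 0.05. For most genes the mNKX3.1 libraries were close to weighted sums of PE libraries, as given next, so the groups were not separate. This comparison therefore cannot decide whether the label has an effect.

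Before the sides are compared, a relation between the libraries has to be given. For most genes, though not for most seminal vesicle secretory genes, each mNKX3.1 library was close to a weighted sum of PE libraries on the linear scale. The weights were fitted by non-negative least squares over abundant genes and tested on 451 other genes at log2 values of at least 11. The closest sum for mNKX3.1 1 held PE 1 at a weight of 0.426, PE 3 at 0.519 and PE 4 at 0.038. For mNKX3.1 2 it held PE 2 at 0.361, PE 3 at 0.516 and PE 4 at 0.118, and for mNKX3.1 4 it held PE 2 at 0.536, PE 3 at 0.413 and PE 4 at 0.046. For mNKX3.1 3, the low library of its group, the weights were 0.473 for PE 1, 0.341 for PE 2, 0 for PE 3 and 0.187 for PE 4. The weights of a library added up to between 0.983 and 1.001, and every high mNKX3.1 library, but not the low library, held PE 3.

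**Figure D1:**
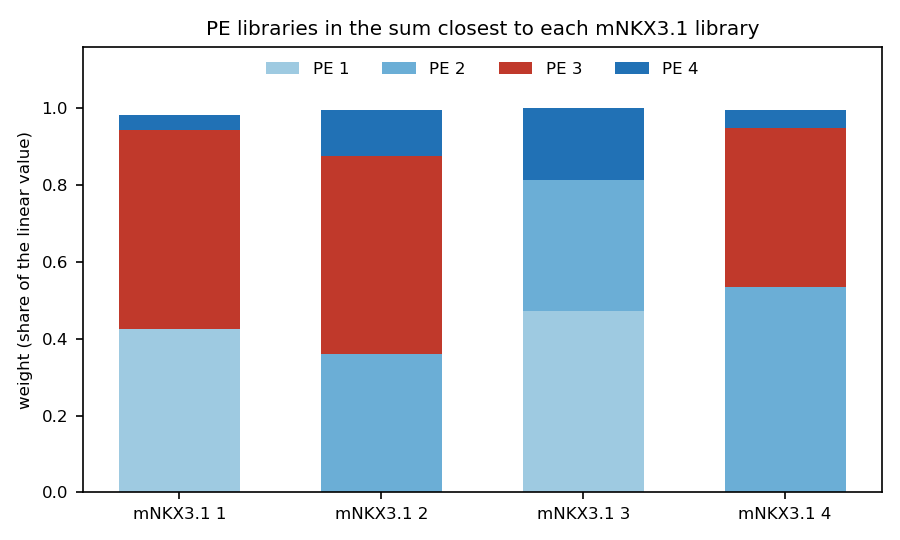
Weights of the 4 PE libraries (colours) in the non-negative sum closest to each mNKX3.1 library, as shares of the linear value. PE 3, in red, has a weight of 0.519, 0.516 and 0.413 in mNKX3.1 1, 2 and 4 and of 0 in mNKX3.1 3.

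The residual SD of the mNKX3.1 libraries from these sums was 0.036 to 0.047 on the log2 scale, against 0.069 to 0.195 from their best single PE library. For sums of PE from mNKX3.1 libraries and for all pairs among SVE, UTY_sh and mNKX3.1+UTY_sh it was 0.062 to 0.212. The sums also gave values for Sbp, which was not in the fit: 18.44 against a measured 18.48 in mNKX3.1 1, 18.43 against 18.53 in mNKX3.1 2, 7.04 against 8.46 in mNKX3.1 3 and 18.11 against 18.22 in mNKX3.1 4. Over the 9130 genes with a value of at least 7 in all 8 libraries, between 2 and 4 genes per library lay more than 0.5 from the sum. The seminal vesicle secretory genes departed from it: 8, 9, 2 and 9 of 12 lay more than 0.5 from the sum in mNKX3.1 1, 2, 3 and 4. This list was not held to the minimum of 7, and Svs3a, Svs3b, Sva, Dnase2b and Spinkl were below it in mNKX3.1 2. Of the members at 7 or more in all 8 libraries, Svs1, Svs6 and Ceacam10 lay that far off in mNKX3.1 1, 2 and 4. Svs2, Svs5 and Pate4 stayed within 0.5 of the sum in all 4. The median of the list was -0.65, -1.45, 0.37 and -1.01 from it, and in mNKX3.1 2 Svs3a, Svs4, Svs6 and Sva were below every PE library, as were Svs4 and Svs6 in mNKX3.1 4. How libraries under 2 labels came to have this relation cannot be told from the table. It bears on the comparison by label above and on every value below. The high mNKX3.1 libraries were close to sums that hold PE 3 and also PE libraries of the low side. The low library mNKX3.1 3 was, for most genes, close to a sum of PE libraries of the low side. Its Sbp, Sbpl and Spink3 values lay 1.42, 1.64 and 0.87 above that sum. Neither side can therefore be read as 4 separate observations. The difference of PE 3 from the other PE libraries is given beside the genes and lists that met the rule below.

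**Figure D2:**
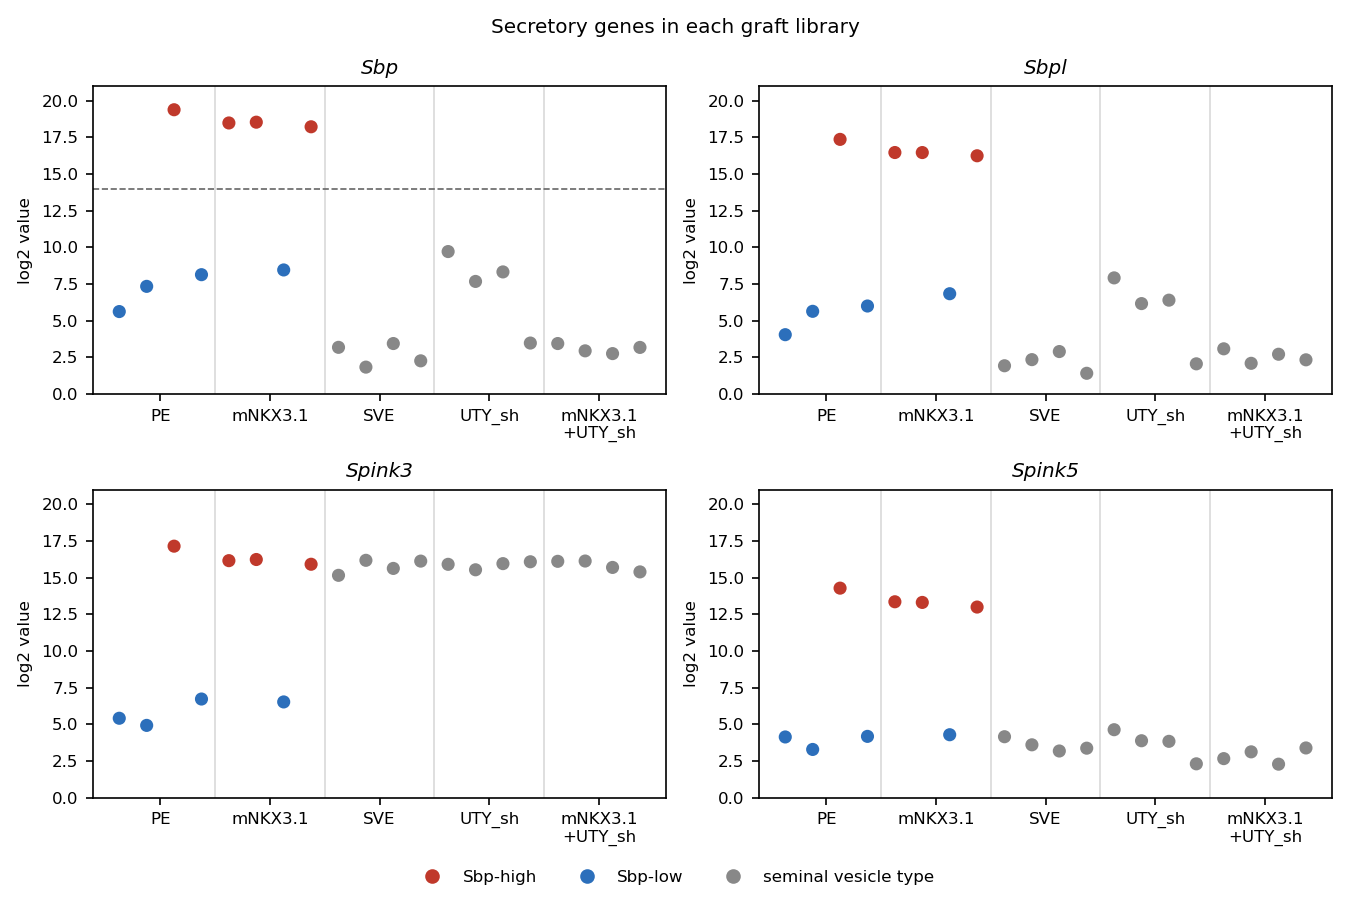
Deposited log2 values of Sbp, Sbpl, Spink3 and Spink5 in all 20 libraries (points), by label group, with the Sbp threshold of 14 as a dashed line. Red points are the Sbp-high and blue points the Sbp-low libraries, and Spink3 is also at 15.15 to 16.17 in the 12 grey seminal vesicle type libraries.

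Among the 12848 genes other than Sbp with a value of at least 5 in at least 4 of the 8 libraries, 173 (1.35%) were higher and 73 (0.568%) lower on the high side. A gene was counted as higher or lower when the sides' values did not overlap and their means differed by at least 1 on the log2 scale. The filter let 44 of the 173 genes through on their high libraries alone, and 5 of the 73 on their low libraries alone, so for these the count rests on the filter. Without a minimum size, 1299 genes (10.1%) lay higher and 1413 (11.0%) lower without overlap, and the median difference of all genes was -0.02.

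PE 3 against the other PE libraries gave 311 genes higher (2.42%) and 318 lower (2.48%) by the same rule. All 173 and all 73 genes of the full split were among them, which is 55.6% and 23.0% of those lists. mNKX3.1 1, 2 and 4 against mNKX3.1 3 gave 144 higher (1.12%) and 28 lower (0.218%). For the genes set apart in PE 3, the median size of the difference was 1.53 within PE and 0.96 within mNKX3.1 for those higher, and 1.45 and 0.54 for those lower. Across the 8 libraries 68 genes were higher and 0 lower by at least 2 without overlap. For 303 of the 311 genes, which were outside the fit of the weights, the median distance of a mNKX3.1 value from its sum was 0.059 to 0.105, and for 313 of the 318 it was 0.111 to 0.142.

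**Figure D3:**
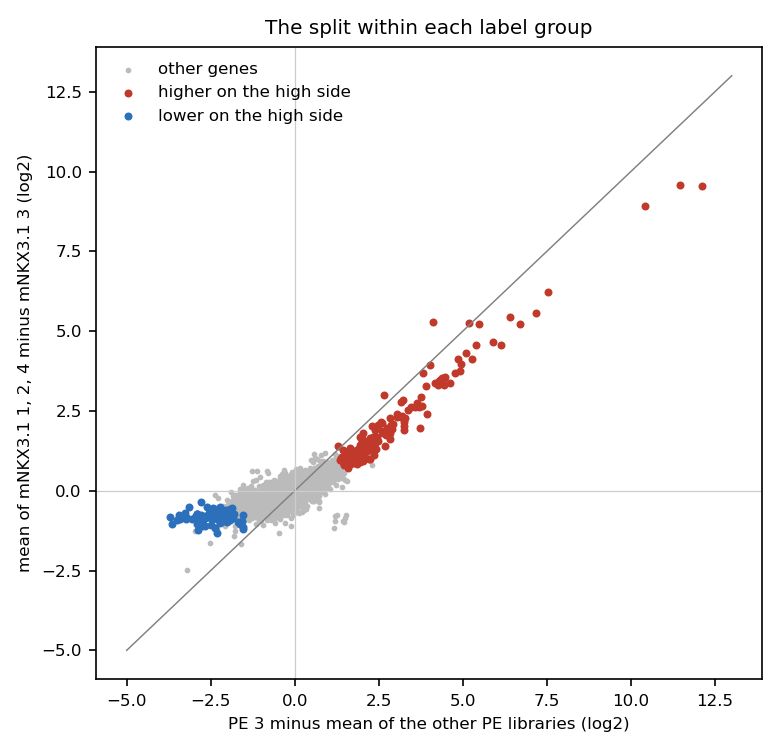
Difference of each of 12848 genes within PE (PE 3 minus the mean of PE 1, 2 and 4, x axis, log2) and within mNKX3.1 (mean of 1, 2 and 4 minus 3, y axis, log2), with the line of equality. The 173 genes higher on the high side (red) lie mostly below the line at the right, and the 73 lower (blue) extend to -3.72 within PE but stay near -1 within mNKX3.1.

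The genes furthest apart were secretory and protease inhibitor genes, led by Sbpl, which may share reads with Sbp, and the known ventral product Spink3. The Sbpl log2 value was 4.05, 5.65, 17.36 and 6.01 in PE 1 to 4 and 16.47, 16.47, 6.84 and 16.25 in mNKX3.1 1 to 4, a difference between the sides of 10.997 (12.13 within PE). Spink3 was 5.41, 4.93, 17.14 and 6.72 in PE 1 to 4 and 16.15, 16.23, 6.52 and 15.91 in mNKX3.1 1 to 4, a difference of 10.46 (11.45 within PE). The low libraries all stayed below 7 in these genes, so the sides were separated by a wide gap.

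Spink5 encodes a serine protease inhibitor of the same family and was 4.14, 3.29, 14.28 and 4.18 in PE 1 to 4 and 13.35, 13.30, 4.29 and 12.99 in mNKX3.1 1 to 4 (difference 9.51, 10.41 within PE). Spink3 and Spink5 parted in the reference libraries. Spink3 was between 15.15 and 16.17 in all 12 of them, at the level of the high side, so a high Spink3 is not limited to ventral prostate in these grafts, while Spink5 was between 2.28 and 4.63 there, at the level of the low side. In the reference libraries Sbpl was raised only where Sbp was, at 7.92, 6.17 and 6.41 in UTY_sh 1 to 3 and at most 3.09 in the others.

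The other large differences were in genes of mixed function. Tac1, the precursor of the neuropeptide substance P, was 2.47, 2.58, 10.24 and 3.09 in PE 1 to 4 and 9.32, 9.23, 2.91 and 8.88 in mNKX3.1 1 to 4 (difference 6.66, 7.53 within PE). Nupr1, a stress-induced nuclear protein, was 6.15, 6.48, 12.63 and 6.11 in PE 1 to 4 and 11.74, 11.77, 6.20 and 11.43 in mNKX3.1 1 to 4 (difference 5.66, 6.39 within PE). Slc26a4, the anion exchanger pendrin, was 5.51, 5.28, 11.42 and 5.76 in PE 1 to 4 and 10.49, 10.43, 5.70 and 10.17 in mNKX3.1 1 to 4 (difference 5.07, 5.90 within PE). In each of these PE 3 was the highest library, mNKX3.1 1, 2 and 4 lay next to each other below it, and no low library came near them.

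Crabp1, a retinoic acid binding protein, differed by 5.84 (6.70 within PE), and Rnf186, a ubiquitin ligase, by 4.96 (5.48 within PE). The predicted genes Gm7714 and Gm4684 differed by 6.21 and 5.23 (7.17 and 6.14 within PE). For Tac1, Crabp1, Gm7714, Gm4684 and Rnf186 the low libraries were between 1.91 and 3.64, near the floor of the scale. Low values are compressed there, so the differences of these genes are understated. These genes, and Kel below, passed the filter on their high libraries alone, so their place here rests on the filter. The genes whose values were most alike to those of Sbp over the 8 libraries were Sbpl (Pearson's r 0.9996), Spink3 (0.9947), Tac1 (0.994), Gm7714 (0.9938) and Kel, an endopeptidase of the red cell surface (0.9916). These coefficients describe 8 points in 2 clusters.

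The lobe lists did not divide cleanly. Hoxb13 was between 12.19 and 12.43 on the high side and between 11.99 and 12.20 on the low side. Its values overlapped, with a difference of 0.19. Thus 2 of the 3 ventral list genes, Sbpl and Spink3, were higher by the rule and the regulator was not. Because Sbpl may share reads with Sbp, it adds little to the rule gene itself. None of the 3 dorsal, lateral and anterior products met the rule. Msmb was higher without overlap, at 15.35, 14.86, 15.02 and 14.85 in PE 3 and mNKX3.1 1, 2 and 4 against 14.07, 14.38, 14.31 and 14.25 in PE 1, 2 and 4 and mNKX3.1 3 (difference 0.77, 1.09 within PE).

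Pbsn was lower without overlap, at 17.37, 17.69, 17.71 and 17.72 on the high side against 17.93, 17.86, 18.00 and 17.96 on the low side (difference -0.32, -0.57 within PE). Tgm4 was likewise lower, at 18.98, 19.32, 19.25 and 19.29 against 19.65, 19.46, 19.52 and 19.57 (difference -0.34, -0.56 within PE). Every high library thus held the dorsal, lateral and anterior products at abundant levels beside Sbp, PE 3 included. Set against lobe identity, the sides differed in Sbpl and the ventral product Spink3 by over 10 on the log2 scale, and in the products of the other lobes by less than 1. Sbpl may share reads with Sbp, which set the sides, so it is not separate from the rule. Spink3 was also at the level of the high side in all reference libraries. Whole grafts were measured, and fewer cells of a type and less RNA per cell cannot be told apart.

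Of 20 other prostate secretory genes, 12 passed the filter on low values, 4 were higher by the rule (1.35% of all genes were) and 0 lower, and 8 lay higher without overlap (10.1% of all genes did). Their median difference was 0.56 (0.83 within PE), against -0.02 for all genes. Beside Spink5, which passed the filter on its high libraries alone, the 4 were 5430419D17Rik, Pigr and Wfdc3. 5430419D17Rik was 10.06, 11.38, 15.67 and 10.75 in PE 1 to 4 and 14.73, 14.75, 10.71 and 14.51 in mNKX3.1 1 to 4 (difference 4.19, 4.94 within PE). Pigr, the receptor that carries polymeric immunoglobulin across epithelium, differed by 2.82 (3.45 within PE), and Wfdc3, of the whey acidic protein family, by 1.15 (1.56 within PE). 9530053A07Rik, the most abundant gene of the list, overlapped between the sides at 21.28 to 21.80.

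Seminal vesicle secretory genes were present in all 8 libraries at levels below those of SVE, and 3 of 12 were lower on the high side by the rule, against 0.568% of all genes. Svs2, which encodes a clot-forming semen protein, was 17.31, 17.26, 13.86 and 17.32 in PE 1 to 4 and 16.38, 16.38, 17.23 and 16.61 in mNKX3.1 1 to 4 (difference -1.47, -3.44 within PE), against 21.57 to 22.42 in SVE. Pate4 and Svs5 differed by -1.56 and -1.25 (-3.51 and -2.25 within PE). The same list moved both ways within PE: Svs1, Svs3a, Svs3b, Svs6, Sva, Ceacam10, Dnase2b and Spinkl were 1.17 to 1.51 higher in PE 3 than in the other PE libraries, but 0.763 to 1.17 lower in mNKX3.1 1, 2 and 4 than in mNKX3.1 3. Their values therefore did not follow the split, and the list's median difference was -0.17.

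Nerve and neuroendocrine genes were lower on the high side as a group. Of 12 that passed the filter, of 13 listed, 11 met the rule (0.568% of all genes did so in this direction). All 12 lay lower without overlap (11.0% of all genes), with a median difference of -1.18 (-2.47 within PE, -0.81 within mNKX3.1). The list holds both kinds of gene, so its difference does not name a cell type. Nefl, the light neurofilament subunit, was 7.48, 7.48, 4.05 and 7.43 in PE 1 to 4 and 6.79, 6.59, 7.54 and 6.61 in mNKX3.1 1 to 4 (difference -1.47, -3.41 within PE). Tubb3, the neuronal tubulin, was 7.88, 7.77, 4.84 and 7.63 in PE 1 to 4 and 7.02, 6.85, 8.01 and 7.05 in mNKX3.1 1 to 4 (difference -1.38, -2.92 within PE). Both were lowest in PE 3, and the mNKX3.1 high libraries lay between PE 3 and the low libraries.

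Dbh, the enzyme that makes noradrenaline, differed by -1.34 (-2.66 within PE) and Snap25, a synaptic vesicle fusion protein, by -1.38 (-2.80 within PE). The more abundant Prph, Stmn2 and Uchl1 differed by -1.29, -1.19 and -1.13 (-2.59, -2.35 and -2.26 within PE). Other neuronal genes were among the 10 largest differences in this direction over all genes: Nefh, the heavy neurofilament subunit (-1.44, -3.23 within PE), and Npy, a neuropeptide of sympathetic fibres (-1.41, -2.76 within PE). Scg2 and Pcsk1n, of secretory granules, were among them too (-1.43 and -1.47, or -3.26 and -2.88 within PE). In SVE Nefl was at 1.99 to 3.26 and Tubb3 at 2.02 to 3.15, so PE 3 was nearer to SVE in these 2 genes than the other PE libraries were. Nefh was at 8.03 to 9.12 in SVE, where PE 3, at 5.61, was the farthest of the PE libraries. Schwann cell genes, which mark the sheath of peripheral nerve, did not move by this much: 0 of 7 met the rule, 2 lay lower without overlap (11.0% of all genes did), and the median was -0.31. The most abundant of them, Mbp, overlapped, at 9.66 to 9.71 on the high side and 9.64 to 9.79 on the low side.

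**Figure D4:**
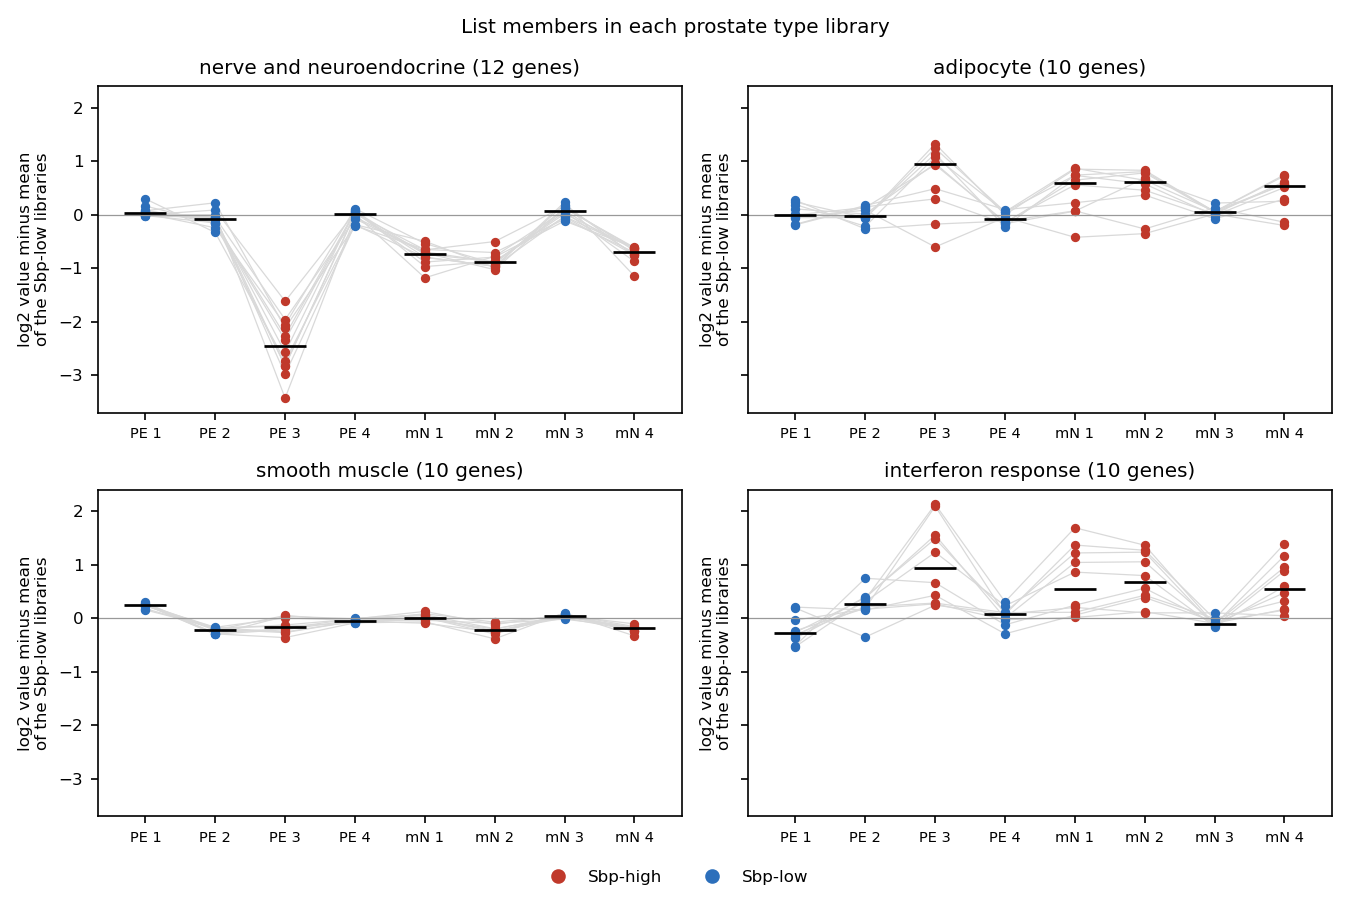
Log2 value of each list member that passed the filter, minus its mean in the Sbp-low libraries, in PE 1 to 4 and mNKX3.1 1 to 4 (mN), with black bars for the list's median. Nerve and neuroendocrine genes are lowest in PE 3, with a median difference within PE of -2.47. The medians of adipocyte and interferon genes are above 0 in the red high libraries, while the adipocyte gene Lipe lies below 0 in all 4. Smooth muscle genes vary without following the split.

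Fat genes leaned the other way by less than the rule asks. Of 10 adipocyte genes past the filter, of 12 listed, 0 met the rule, 7 lay higher and 1 lower without overlap (10.1% and 11.0% of all genes did), and the median difference was 0.68 (0.95 within PE). Fabp4, a fatty acid carrier, was 8.81, 8.74, 10.12 and 8.80 in PE 1 to 4 and 9.65, 9.63, 8.86 and 9.55 in mNKX3.1 1 to 4. Adipoq, the hormone adiponectin, was 7.23, 6.93, 8.13 and 6.76 in PE 1 to 4 and 7.73, 7.80, 7.05 and 7.72 in mNKX3.1 1 to 4. Cfd, also known as adipsin, differed by 0.83 and Lpl, lipoprotein lipase, by 0.34, while Plin4, of lipid droplets, overlapped and Lipe, hormone-sensitive lipase, lay lower by 0.40.

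Genes of the main stroma differed little between the sides. Of 12 fibroblast and matrix genes and 10 smooth muscle genes 0 met the rule, with medians of -0.08 and -0.14. Over all genes only 1.35% met it as higher and 0.568% as lower, so a count of 0 in lists of this size says little. Without overlap, Fn1 lay higher by 0.25 and Lum differed by -0.30 (10.1% and 11.0% of all genes did so), and 0 smooth muscle genes did. Dcn, a matrix proteoglycan, was between 12.41 and 12.46 on the high side and between 12.41 and 12.48 on the low side. Myh11, smooth muscle myosin, was 14.63, 14.22, 14.25 and 14.31 in PE 1 to 4 and 14.39, 14.20, 14.45 and 14.22 in mNKX3.1 1 to 4, and Acta2, smooth muscle actin, spanned 13.32 to 13.78. In Myh11 and Acta2 PE 1 was highest, and the sides overlapped.

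Urothelial genes did not move together. Upk1a, a uroplakin of the bladder lining, was 10.42, 10.63, 12.24 and 10.34 in PE 1 to 4 and 11.61, 11.62, 10.53 and 11.56 in mNKX3.1 1 to 4 (difference 1.28, 1.78 within PE), and it alone of 4 genes past the filter, of 8 listed, met the rule (1.35% of all genes did in this direction). Upk1b, another uroplakin, lay lower without overlap, by 0.31. Upk2 overlapped, at 4.98 to 5.70, and Upk3b, which spans 3.30 to 7.04, overlapped too, while Upk3a and Krt20, the defining genes of mature urothelium, were below the filter.

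Some other lists held genes that followed the split. Interferon response genes met the rule in 4 of 10, all higher (1.35% of all genes were), with a median of 0.68 (0.90 within PE). Ifit1 differed by 1.58, Oas1a by 1.53, Rsad2 by 1.20 and Irf7 by 1.15, and within PE by 2.08, 2.08, 1.43 and 1.51. Of these, Oas1a passed the filter on its high libraries alone. Emx2, a homeobox gene of the developing urogenital tract, was the only 1 of 5 Wolffian duct regulators past the filter to meet it (0.568% of all genes did in this direction), with a difference of -1.32 (-2.89 within PE). Pou3f3, a POU transcription factor, differed by -1.50 (-2.31 within PE). The largest difference of this direction over all genes was that of Vat1l, at -1.63 (-3.65 within PE), and the predicted gene Gm17689 differed by -1.52 (-3.72 within PE). Emx2 and Pou3f3 were higher in SVE, Emx2 at 8.18 to 8.50 and Pou3f3 at 10.66 to 11.04, than in any of the 8 libraries. Cldn10, a tight junction gene, was 1 of 9 proximal luminal genes to meet the rule (1.35% of all genes did in this direction). It was higher by 1.47 (2.06 within PE), while the median of the proximal luminal list was -0.085. Myh2 and Myh1, skeletal muscle myosins, were higher by 1.53 and 1.51 (2.03 and 1.95 within PE) as 2 of 5 skeletal muscle genes. Both passed the filter on their high libraries alone, so this count rests on the filter. The more abundant Acta1, Ckm and Tnnc2 differed by -0.285, -0.423 and -0.108, with overlap, and the list's median was -0.108.

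In the remaining lists 0 genes met the rule, and their counts without overlap stand against 10.1% of all genes higher and 11.0% lower. Androgen response genes lay higher without overlap in 4 of 14 and lower in 3, with a median of 0.05: Fkbp5 and Tsc22d3 were higher by 0.81 and 0.85 and Sgk1 was lower by 0.58. Endoplasmic reticulum chaperone and stress genes, which fold secreted proteins, lay lower without overlap in 8 of 13 (median -0.23), among them Hspa5, the main chaperone, by 0.34. Endothelial genes lay lower in 3 of 8 (median -0.22). Leukocyte genes overlapped in 7 of 7, with summed log2 levels from 11.63 to 13.50 on the high side and from 11.54 to 14.08 on the low side.

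Polyamine pathway genes, of interest because Sbp binds spermine, overlapped in 7 of 7 (median -0.03). Luminal and basal epithelial genes had medians of -0.09 and 0.03, with 1 of 10 lower and 1 of 9 higher without overlap, about the shares of all genes (11.0% and 10.1%). Endodermal regulators lay higher without overlap in 4 of 9 and lower in 1 (median 0.02), posterior Hox genes higher in 1 of 6, proliferation genes lower in 2 of 6 and immediate early and heat shock genes lower in 4 of 10. Y-linked genes lay higher in 2 of 4. Squamous and red blood cell lists had 1 gene each past the filter, and the kidney list had 0 of 8.

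Reads per library, worked out from the deposited values, were about 14930000 to 21860000 on the high side and 15470000 to 20820000 on the low side. These ranges overlapped, but the library that stands alone in each label group was its shallowest. PE 3 had about 14930000 reads, against 18030000 to 20820000 in the other PE libraries. mNKX3.1 3 had about 15470000, against 18790000 to 21860000 in the rest of its group. Whether depth bears on the split was not tested. The Pearson correlation of libraries over genes was 0.9762 to 0.9969 among the high libraries, 0.959 to 0.996 among the low libraries and 0.9351 to 0.9817 between the sides. Without PE 3 the genes counted as higher were 145 and those lower 3. The lower side of the split, nerve and neuroendocrine genes included, thus rests on PE 3 by this rule.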

How the data were processed

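Poly-A RNA was made into Illumina TruSeq libraries, per the labels' protocols. DESeq, Cufflinks 2.0.2, TopHat2 2.0.4, bcl2fastq 1.8.4 and the mouse build mm9 are named in the submitters' processing notes. How reads were counted, on which annotation, and what was done with rat reads is not given in those notes or in the labels. The authors deposited 1 table of log2 values for 23284 genes and 20 libraries. Between 11 and 13 the antilogs were whole multiples of a unit per library (100% within 0.1 reads), which gave the reads per library. Low values are compressed towards a floor: the 5801 genes whose mean lay below 2.5 had 2.27 as their median value. Whole multiples were not looked for below 11, and a count test was not used. Because of the compression, log2 differences of low genes are understated.

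The members, lists and rules were chosen with earlier results of these data known. Libraries are numbered in accession order, which pairs nothing. Genes with a value of at least 5 in at least 4 of the 8 libraries were kept, Sbp aside. Differences are the mean of the high minus the mean of the low libraries, with the difference of PE 3 from the other PE libraries beside the genes that met the rule. Named genes are the 10 largest differences in each direction among genes that met the rule with the same sign within both groups, up to 4 such members of each of 29 lists, the lobe genes, the abundant members of the tissue lists and the 5 genes most like Sbp. A few further list members were named after their values were seen. Some genes are not reported here. Weights came from non-negative least squares (SciPy) on odd-numbered genes, with residuals on even-numbered genes. mNKX3.1 was compared with PE in limma 3.58.1 (R 4.3.3), with a trend of the variance, 1 mean per group over all 20 libraries and Benjamini-Hochberg adjustment over 13456 genes. Where libraries are not separate animals, its p-values reflect technical spread only. The scripts were tested on simulated data. Promoter windows are RefSeq's (GRCm38.p6), another build than the authors' mm9, and all other values were taken by gene symbol.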

Additional observations from a re-analysis of the deposited data

Results flagged for a closer look

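For genes named in the report, 53 groups of 4 libraries held a library far from the other 3, 31 in PE and 22 in mNKX3.1. The measure is the gap to the nearest other library divided by the group's whole range, and chance flags about 1 in 20 groups. The sides were chosen so that PE 3 stands alone within PE and mNKX3.1 3 within mNKX3.1, and the genes were picked for following them, so these gaps describe the same split.

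PE 3 was the far library at the top of PE for 14 genes. The gap ratio there was 0.85 for Sbpl, Spink3, Crabp1 and Upk1a, 0.86 for Gm4684, 0.88 for Rnf186, 0.91 for Cldn10, 0.92 for Spink5, Tac1, Slc26a4, Cfd and Kel, 0.93 for Gm7714 and 0.94 for Nupr1. PE 3 was the far library at the bottom for 17 genes. There it was 0.85 for Pou3f3, 0.87 for Stmn2, 0.89 for Pcsk1n and Svs5, 0.9 for Vat1l, Gm17689 and Uchl1, 0.92 for Pate4, Scg2 and Tubb3, 0.93 for Prph, 0.95 for Npy, 0.96 for Nefh, 0.98 for Svs2 and Snap25, and 0.99 for Nefl and Emx2.

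mNKX3.1 3 was the far library at the bottom of its group for 17 genes. The gap ratio was 0.91 for Oas1a and Irf7, 0.92 for Pigr, 0.93 for Tac1, Crabp1, Gm4684 and Slc26a4, 0.94 for Nupr1, Rnf186, 5430419D17Rik and Kel, 0.95 for Gm7714 and Upk1a, 0.96 for Spink5, 0.97 for Sbp and Spink3, and 0.98 for Sbpl. At the top of its group it was the far library for 5 genes, with 0.84 for Upk1b, 0.85 for Npy, 0.87 for Pcsk1n and Mbp, and 0.89 for Pbsn.

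The seminal vesicle secretory list went opposite ways in the 2 label groups. Its median difference was 1.20 within PE and -0.92 within mNKX3.1, a gap of 2.12, and 8 of 12 genes lay higher without overlap in PE 3 and lower without overlap in mNKX3.1 1, 2 and 4. The share of all genes that did so was not counted, so this count cannot be called particular to the list. The difference between the label groups was not tested.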

How the results depend on the processing

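Against 173 genes higher and 73 lower on the high side, leaving out each library in turn gave 145 to 189 higher and 3 to 103 lower; the 3 came without PE 3. PE libraries alone gave 311 and 318. mNKX3.1 libraries alone gave 28 lower, and holding the label group gave 128 lower. A minimum difference of 2 gave 68 and 0, and no minimum 1299 and 1413, by construction. Other filters, thresholds and scaling stayed within 1.5 times, as did the higher counts with mNKX3.1 alone or the label group held. The weights of PE 3 moved under none of the alternatives run. The 0 genes called in mNKX3.1 against PE (65 at an unadjusted p below 0.05 in limma) did not move either. Because the groups were not separate, that steady 0 does not show that the label has no effect. Fitting the weights on all genes was added after seeing the data. Of the single-gene differences 822 stayed within their spread and 60 moved, and of the list medians 367 and 25; none reversed a gene counted as higher or lower. The causes were not tested. No paired analysis was possible because the labels give the libraries no replicate numbers. The split holds 4 libraries a side, and neither side can be read as 4 separate observations. Compression of low values limits what can be said of genes near the floor.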
